A study of Mus musculus with 6 samples.

Results

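The genes described here are 7 genes of gastric acid secretion and epithelial potassium transport, Kcnq1, Kcnq5, Kcne3, Slc4a2, Atp4a, Atp4b and Slc26a9, taken by symbol from the 23420 gene rows of each library. They were chosen on values of these data: high Kcnq1 and Slc4a2, the lack of a parietal cell program, and the difference in Kcnq5 between the sorted populations. Those levels and that contrast are therefore given as a description, with no test. The libraries were made from polyadenylated RNA of dysplastic stem cells sorted from Meta4 organoids, 1 mouse line of dysplastic epithelial organoids, into populations called DP-DSCs (3 libraries) and TP-DSCs (3 libraries). The labels do not spell out DP and TP. As known of the study, they mean double and triple positive for surface markers, with CD44v6 added to CD133 and CD166 in TP-DSCs, and the line came from mouse stomach. Genotype, strain, age and any treatment of the groups are not in the labels. Both groups share the line, and no normal stomach was analysed here.

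The libraries held between 17015581 and 32671039 reads in genes, and reads were found for 12504 to 14434 genes in DP-DSCs against 10571 to 10982 in TP-DSCs. The labels call the samples independent without saying whether they came from separate cultures, so the spread given here is that between these samples and may be technical. The library names open with 3840 (replicate 1 of each group) or 4140 (replicates 2 and 3), numbers whose meaning the labels do not give. The epithelial genes Krt8 and Krt18 had at least 2308 and 2195 CPM (reads per 1000000 gene reads) in every library. In bulk RNA, fewer cells that express a gene and less of its RNA per cell cannot be told apart. Of 11925 genes tested with edgeR's quasi-likelihood test, 0 (0.00%) had an adjusted p under 0.05 between TP-DSCs and DP-DSCs, 728 (6.10%) had an unadjusted p under 0.05, and DESeq2 called 93 (0.780%).

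The parietal cell of the stomach secretes acid with the gastric H+/K+-ATPase, whose catalytic alpha subunit is encoded by Atp4a and whose beta subunit by Atp4b. The pump takes up luminal potassium in exchange for protons, and the channel KCNQ1, in parietal cells together with its partner KCNE2, returns potassium to the lumen. The anion exchanger AE2, encoded by Slc4a2, exports bicarbonate and imports chloride at the basolateral side. KCNQ1 also pairs with KCNE3, in crypt cells of the intestine, where it supports chloride secretion from the basolateral membrane. SLC26A9 is an anion transporter of gastric surface and airway epithelium. KCNQ5 is best known as a subunit of the M-current in neurons and is also found in muscle.

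The KCNQ genes are related in sequence. The longest exact stretch shared by the longest coding sequences of Kcnq1 and Kcnq5 in GENCODE M21 was 13 bases, and 0 stretches of 50 bases occurred in both. Read length and the handling of reads with several matches are not stated in the sources used here. This pair was compared with its values known.

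The proton pump lacked one subunit in every library, and the other varied from no reads to a low level. Atp4b had 0 reads in all 6 libraries, 165326890 gene reads in all, which allows up to 0.0181 CPM (3 counts of the total, for counting error only). Atp4a had 72, 0 and 1 reads over DP-DSCs replicates 1, 2 and 3, with 207, 139 and 0 over TP-DSCs replicates 1, 2 and 3. In the same order, DP-DSCs had 2.21, 0 and 0.0370 CPM, and TP-DSCs 8.30, 8.17 and 0 CPM. Reads of Atp4a thus came from 3 libraries and 1 further read, and the groups overlapped. At this abundance, absence was common in TP-DSC libraries and much less so in DP-DSC libraries. Among 634 genes with a mean of 2 to 4 CPM, 95.0% lacked reads in at least 1 library. The shares without reads were 43.8, 56.8 and 59.8% in TP-DSCs replicates 1, 2 and 3. In DP-DSCs replicates 1, 2 and 3 they were 0.631, 9.94 and 0.631%.

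**Figure D1:**
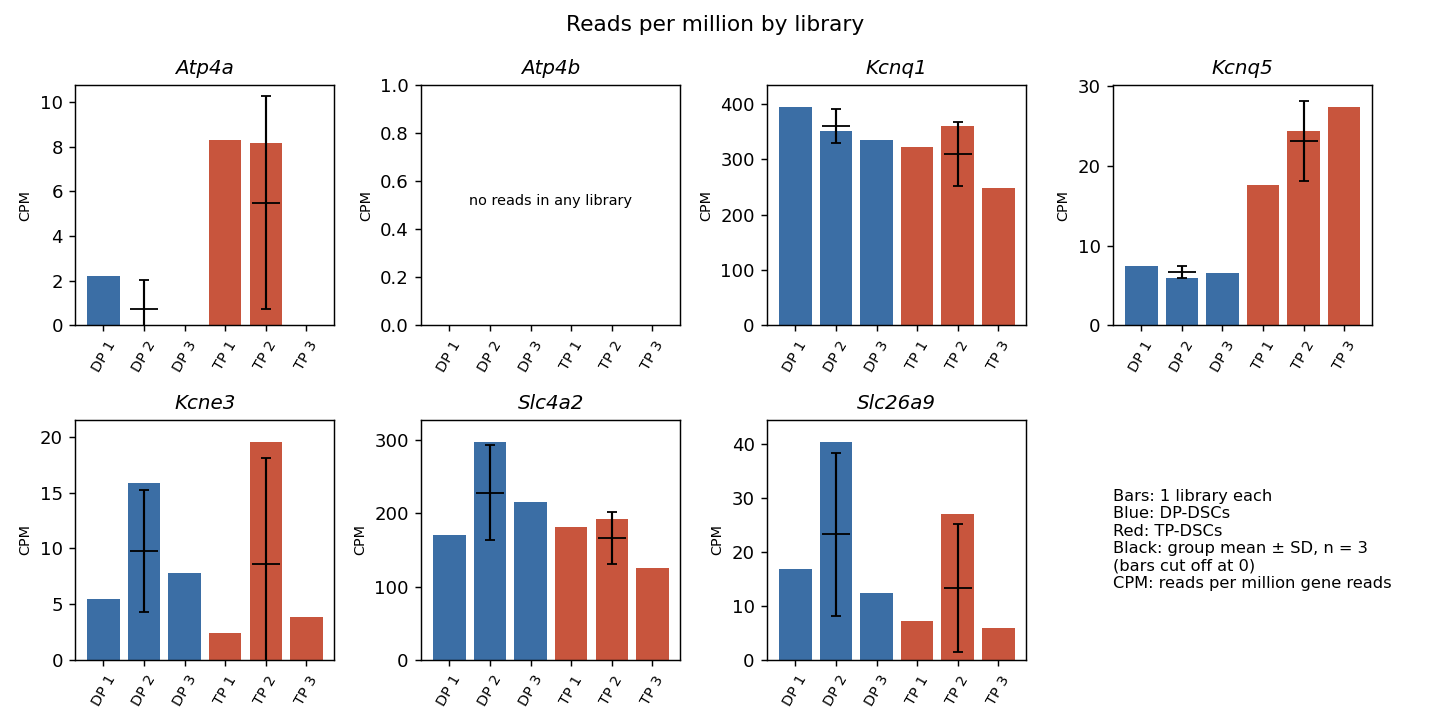
CPM of each of the 7 genes (vertical axes, starting at 0, with a scale of their own per gene) in each library, blue for DP-DSCs and red for TP-DSCs, with the group mean ± SD (n = 3) in black, cut off at 0. Kcnq5 is the only one of the 7 whose TP-DSC bars (17.6 to 27.4) all stand above the DP-DSC bars (5.999 to 7.49). Atp4b has no bar.

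Kcnq1, the pore-forming subunit, was abundant in both groups. It stood at 394, 349.9 and 335 CPM in DP-DSCs replicates 1, 2 and 3 and at 322, 359.7 and 247 CPM in TP-DSCs. The groups overlapped, and TP-DSCs replicate 3 was the lowest library. The means were 359.6 ± 30.9 CPM for DP-DSCs against 309 ± 57.4 CPM for TP-DSCs (SD, n = 3 each), with a log2 fold change of -0.23 ± 0.22 (SE) for TP-DSCs over DP-DSCs. The SD of log2 values within groups was 0.22. Without TP-DSCs replicate 3 the fold change was -0.07, and without DP-DSCs replicate 1 it was -0.15.

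In RPKM (CPM divided by kilobases of merged exon), the scale on which genes of different length are compared, Kcnq1 had a level of 87.9 ± 7.55 in DP-DSCs and 75.6 ± 14.0 in TP-DSCs (SD, n = 3 each). Its mean level lay above that of 97.2% of 19320 protein-coding genes. Among 93 potassium channel genes in the files it ranked 1 in each of the 6 libraries. The next on the mean was Kcnk1, a two-pore-domain potassium channel, with a mean RPKM of 58.3 against 81.7 for Kcnq1. The lowest Kcnq1 library (RPKM of 60.3) lay below the highest Kcnk1 library (RPKM of 69.7), so these neighbours overlapped across libraries although Kcnq1 was the higher within each.

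Kcnq5 was the member with the shift for which the set was chosen. It stood at 7.49, 5.999 and 6.55 CPM in DP-DSCs replicates 1, 2 and 3, from 244, 196 and 177 reads. The TP-DSC libraries, in the same order, had 17.6, 24.3 and 27.4 CPM, from 439, 414 and 850 reads. Each TP-DSC library exceeded each DP-DSC library, which was so for 462 of the 11925 tested genes (3.87%). The means were 6.68 ± 0.752 and 23.1 ± 4.998 CPM (SD, n = 3 each), a ratio of 3.46, and the log2 fold change was 1.75 ± 0.55 (SE). It ranged from 1.64 to 1.86 when 1 library was left out and was 1.98 in the 4 libraries named 4140. The pair of libraries named 3840, 7.49 against 17.6 CPM, has no replicate check.

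The 2 KCNQ members thus stood in different proportions in the sorted populations. Kcnq1 exceeded Kcnq5 in level per length 98.9, 109.6 and 96.0 times in DP-DSCs replicates 1, 2 and 3, and 34.4, 27.8 and 17.0 times in TP-DSCs. Even in TP-DSCs, Kcnq5 remained a minor transcript, with a mean RPKM of 3.004 ± 0.650 against 0.869 ± 0.0978 in DP-DSCs (SD, n = 3 each). It ranked 11 to 13 among the potassium channel genes in DP-DSCs and 7 to 11 in TP-DSCs. A few markers of neurons, glia and smooth muscle were looked at, and no list of skeletal muscle genes was used. The part of such cells in the Kcnq5 reads was not tested. The neuronal gene Elavl4 had no reads in any library, and Snap25, with up to 1.35 CPM in DP-DSCs, had none in TP-DSCs. The 4 neuron and glia markers together reached at most 2.67 CPM among DP-DSCs and 7.13 CPM among TP-DSCs, the latter in replicate 1, while TP-DSCs replicates 2 and 3 had 0. Of the smooth muscle genes, Acta2 and Myh11 had no reads in TP-DSCs, and Des had 5.79 CPM in TP-DSCs replicate 3 and 0 in the other TP-DSC libraries.

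The promoter windows in the RefSeq table (GRCm38.p6, 250 bases before to 50 after a start) were matched for 5 of the 7 members, Kcnq5, Kcne3, Slc4a2, Atp4a and Slc26a9. Kcnq1 and Atp4b were not matched. The windows printed are those of an abundant member, Slc4a2, the member with a shift, Kcnq5, and the pump gene Atp4a, which had reads in 4 libraries. Each CpG dinucleotide is in capitals.
Slc4a2, chr5:24424982-24425281, plus strand: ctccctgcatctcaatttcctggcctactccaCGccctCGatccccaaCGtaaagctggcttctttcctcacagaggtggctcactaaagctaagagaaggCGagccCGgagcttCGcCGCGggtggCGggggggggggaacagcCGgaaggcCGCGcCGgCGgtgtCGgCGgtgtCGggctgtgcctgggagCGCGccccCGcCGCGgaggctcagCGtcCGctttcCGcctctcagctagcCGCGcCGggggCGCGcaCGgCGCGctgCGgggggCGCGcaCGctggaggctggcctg
Kcnq5, chr1:21961893-21962192, minus strand: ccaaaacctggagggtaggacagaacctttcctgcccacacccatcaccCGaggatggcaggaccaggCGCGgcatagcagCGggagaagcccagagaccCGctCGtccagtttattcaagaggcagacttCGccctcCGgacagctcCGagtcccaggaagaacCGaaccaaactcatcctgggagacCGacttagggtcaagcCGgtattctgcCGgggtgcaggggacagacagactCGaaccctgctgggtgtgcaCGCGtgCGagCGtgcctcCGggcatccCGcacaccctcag
Atp4a, chr7:30711959-30712258, plus strand: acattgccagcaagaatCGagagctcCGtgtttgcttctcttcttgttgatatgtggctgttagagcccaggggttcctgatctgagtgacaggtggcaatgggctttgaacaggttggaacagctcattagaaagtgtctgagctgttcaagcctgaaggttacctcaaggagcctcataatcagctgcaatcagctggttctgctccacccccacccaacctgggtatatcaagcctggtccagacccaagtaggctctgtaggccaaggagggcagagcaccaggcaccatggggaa
The Slc4a2 window held 37 CpG dinucleotides, and 5.58% of 32851 promoter windows of this length held as many or more. The Kcnq5 window held 20 (26.5% held as many or more) and the Atp4a window 2 (23.3% held as few or fewer), against a median of 7. A second start of Kcnq5 had 3 and a second start of Slc4a2 had 16. The windows of Kcne3 held 4 and 12, and that of Slc26a9 held 5. The letters TATAAA, searched on both strands, occurred in 13.6% of all windows and among the members in that of Slc26a9 alone. The letters TGATAA, searched likewise, occurred in 9.05% of all windows and in none of the windows matched to members (0). A match of letters is a description of the window and not of its use in these cells.

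Kcne3, the beta subunit that keeps KCNQ1 open at rest, varied more between libraries than between groups. It stood at 5.49, 15.9 and 7.84 CPM in DP-DSCs replicates 1, 2 and 3 and at 2.40, 19.6 and 3.89 CPM in TP-DSCs. Replicate 2 was the highest library of each group, and the groups overlapped. The means were 9.74 ± 5.45 and 8.62 ± 9.51 CPM (SD, n = 3 each), with a log2 fold change of -0.20 ± 1.02 (SE). Without TP-DSCs replicate 2 the log2 fold change was -1.60 and without DP-DSCs replicate 1 it was -0.49. Leaving out TP-DSCs replicate 1 turned it to 0.20, leaving out DP-DSCs replicate 2 to 0.27, and leaving out TP-DSCs replicate 3 to 0.16. No direction can be given for Kcne3. Kcnq1 exceeded it per length by 7.99 to 58.2 times over the 6 libraries.

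The other partner subunits of KCNQ channels were scarce. Kcne2, the partner in parietal cells, had 1 read in DP-DSCs replicate 1 and 0 in the other libraries. Kcne1l and Kcne4 likewise had reads in DP-DSCs replicate 1 alone, at 0.0614 and 0.0307 CPM. Kcne1, the cardiac partner, had no reads, like Kcnq3. Of the 7 other KCNQ and KCNE subunits in the files, 0 had reads in all 6 libraries.

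**Figure D2:**
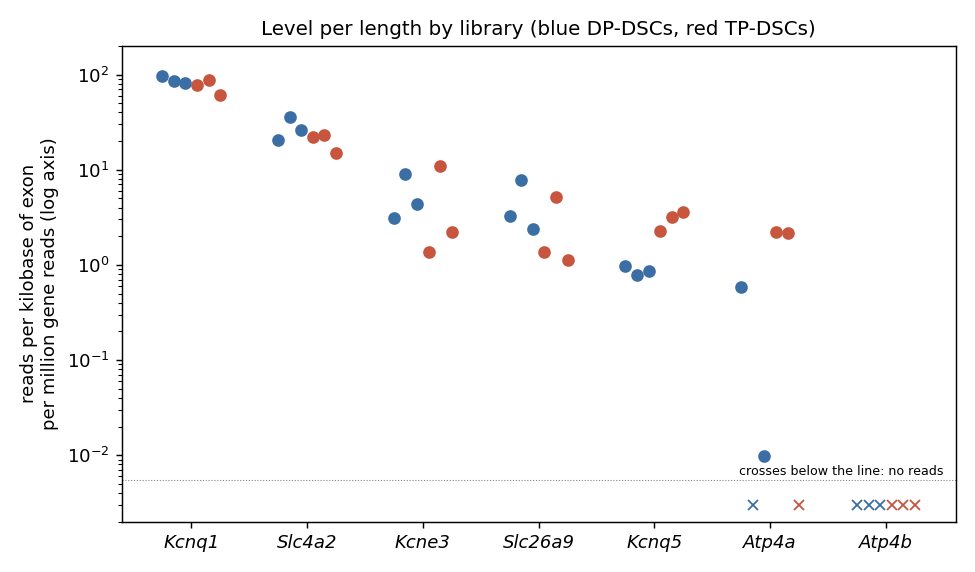
Level per length of each member (vertical axis, RPKM on a log axis) in each library, blue for DP-DSCs and red for TP-DSCs, with crosses for libraries without reads. Kcnq1 (60.3 to 96.3) and Slc4a2 (15.1 to 35.8) stand apart from the other members, and Atp4a spans from no reads to 2.21.

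Slc4a2, the basolateral bicarbonate exporter AE2, was also abundant. It stood at 170.2, 298 and 216 CPM in DP-DSCs replicates 1, 2 and 3 and at 182, 192 and 125 CPM in TP-DSCs. DP-DSCs replicate 2 was the highest library and TP-DSCs replicate 3 the lowest, and the groups overlapped. The means were 228 ± 64.7 and 166 ± 35.8 CPM (SD, n = 3 each), with a log2 fold change of -0.45 ± 0.26 (SE). The SD of log2 values within groups was 0.37. It was -0.75 in the 4 libraries named 4140. Without DP-DSCs replicate 2 it was -0.27 and without TP-DSCs replicate 3 it was -0.26. Per length, Slc4a2 had an RPKM of 27.4 ± 7.77 for DP-DSCs against 19.97 ± 4.30 for TP-DSCs, and its mean lay above 89.1% of protein-coding genes. Its level depends on the length used: the mean RPKM was 23.7 with merged exons and 46.2 with the longest protein-coding transcript, and the percentile and ranks given here use merged exons. Among 20 SLC4 and SLC26 genes it ranked 1 in 4 libraries. It ranked 2 in TP-DSCs replicate 2, below Slc4a11, and in TP-DSCs replicate 3, below the sodium bicarbonate cotransporter gene Slc4a4.

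Slc4a2 (chromosome 5, 24423837 to 24440950, plus strand) runs into the gene Fastk on the opposite strand at its 3' end. They share 1141 exon bases, 13.7% of the merged exons of Slc4a2. Since the strand setting of the counting is not given, reads of both genes cannot be told apart there. Fastk stood at 91.0, 87.0 and 66.4 CPM in DP-DSCs and at 97.4, 112 and 132 CPM in TP-DSCs, each TP-DSC library exceeding each DP-DSC library (3.87% of tested genes). Kcnq1 (chromosome 7, 143106362 to 143427042, plus strand) contains the imprinted antisense RNA Kcnq1ot1, which shares 121 bases with its exons (2.96%). Kcnq1ot1 had 79 reads in TP-DSCs replicate 1 and 0 in the other 5 libraries. Kcnq5 (chromosome 1, 21398403 to 21961942, minus strand) shares 237 exon bases (3.08%) with an antisense transcript not used here. Kcne3 lies on chromosome 7 from 100176502 to 100184869, Atp4a on chromosome 7 from 30712209 to 30725534, Atp4b on chromosome 8 from 13386205 to 13396825, and Slc26a9 on chromosome 1 from 131744022 to 131771504 (GRCm38). Counts are per gene, with no split by exon or transcript form.

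Slc26a9, the gastric surface anion transporter, stood at 16.9, 40.5 and 12.4 CPM in DP-DSCs replicates 1, 2 and 3 and at 7.21, 27.1 and 5.92 CPM in TP-DSCs. As for Kcne3, replicate 2 was the highest library in each group, and the groups overlapped. The means were 23.3 ± 15.1 and 13.4 ± 11.9 CPM (SD, n = 3 each), with a log2 fold change of -0.80 ± 0.76 (SE). Without TP-DSCs replicate 2 the log2 fold change was -1.77, without TP-DSCs replicate 3 it was -0.44 and without DP-DSCs replicate 2 it was -0.22. In limma-voom it was -1.44. Across the 6 libraries, log2 CPM of Kcne3 and Slc26a9 had a Pearson correlation of 0.893, the highest of the 10 pairs among the 5 members with reads in all libraries. The lowest was -0.701, between Kcnq5 and Slc4a2. These correlations rest on 6 libraries that differ in depth and in sorted population and are given without a test.

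In order of the mean level per length, Kcnq1 was followed by Slc4a2, Kcne3, Slc26a9, Kcnq5 and Atp4a, with mean RPKM values of 81.7, 23.7, 5.16, 3.51, 1.94 and 0.829. Kcnq1 stood above Slc4a2, and Slc4a2 above all the others, in each of the 6 libraries. Kcne3, Slc26a9 and Kcnq5 overlapped and changed order between libraries, Kcnq5 being the highest of the 3 in TP-DSCs replicates 1 and 3 and the lowest in all DP-DSC libraries. The mean levels of these 3 lay above 65.4, 59.9 and 53.9% of protein-coding genes, and that of Atp4a above 48.6%. In TP-DSCs replicate 1, Atp4a stood above Slc26a9 and Kcne3 per length.

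**Figure D3:**
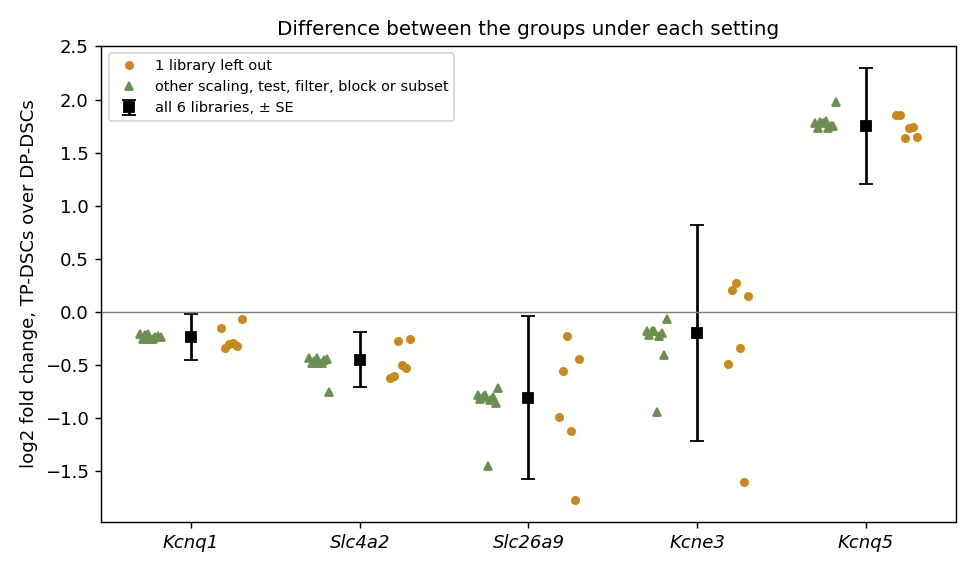
Log2 fold change of TP-DSCs over DP-DSCs (vertical axis) for the 5 members with reads in all libraries, as fitted on all 6 libraries ± SE (black squares), with 1 library left out (circles) and under other settings (triangles). Kcnq5 stays between 1.64 and 1.98, and Kcne3 lies on both sides of 0.

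The genes whose log2 CPM followed each member most closely over the 6 libraries, out of 9176 compared, were named by a fixed rule. For Kcnq1 they were Ptger4, a prostaglandin E2 receptor, Spryd4 and the kinase gene Dyrk2, with Pearson correlations of 0.990, 0.989 and 0.987. Ptger4 stood at 35.9, 21.0 and 18.6 CPM in DP-DSCs and at 18.2, 21.5 and 6.31 CPM in TP-DSCs, low in TP-DSCs replicate 3 like Kcnq1. For Kcnq5 they were the polarity gene Pard3b, Sh3yl1 and the RNA-binding protein gene Celf2 (0.989, 0.987 and 0.987). Pard3b stood at 14.6, 13.6 and 15.8 CPM in DP-DSCs and at 35.3, 38.2 and 45.4 CPM in TP-DSCs. For Slc4a2 they were Vamp8, a SNARE gene of vesicle fusion, Lurap1l and Imp4 (0.999, 0.995 and 0.992). For Kcne3 they were Prkrir, the kinase gene Stk16 and D15Ertd621e (0.997, 0.992 and 0.988), and for Slc26a9 they were Scaf8, Tbpl1 and the mitochondrial folate enzyme gene Mthfd2 (0.990, 0.986 and 0.983). With 6 libraries and so many genes, high correlations arise readily, and they carry no test.

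Other genes of the parietal cell were present in part. Of 14 such genes in the files, 5 had reads in all 6 libraries, 5 had none in any, and 7 could be tested, of which 0 were called and 7 had a log2 fold change below 0, with a median of -0.31 against -0.02 over all tested genes. The 14 genes and the 7 tested include Gif, which is also counted among the chief cell markers (log2 fold change -1.28 ± 2.48, SE). The absent genes were the histamine receptor gene Hrh2, the gastrin receptor gene Cckbr, the transcription factor gene Esrrg, Kcnj16 and Slc26a7. Those present throughout were Kcnj15, an inward rectifier of parietal cells, Clic6, the sodium-proton exchanger gene Slc9a4, and the more widely expressed Ezr and Car2. Ezr, the membrane-cytoskeleton linker ezrin, ranged from 724 to 964 CPM in DP-DSCs and from 733 to 980 CPM over TP-DSCs. Kcnj15 stood at 102, 36.3 and 32.1 CPM in DP-DSCs and at 79.6, 55.2 and 13.7 CPM in TP-DSCs. Clic6 stood at 132, 64.6 and 67.6 CPM in DP-DSCs and at 82.4, 65.1 and 33.4 CPM in TP-DSCs. Slc9a4 stood at 83.1, 69.8 and 75.1 CPM in DP-DSCs and at 59.7, 72.6 and 54.4 CPM in TP-DSCs. All 3 overlapped between the groups.

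Some gastric genes had most of their reads in the libraries named 3840. Atp4a had reads there and, at a like level, in TP-DSCs replicate 2, which is named 4140. Gif, gastric intrinsic factor, stood at 97.7 CPM in DP-DSCs replicate 1 and 40.8 CPM in TP-DSCs replicate 1, and at 2.57 CPM or less in the other 4 libraries. The pepsinogen gene Pgc had 44.5 and 26.2 CPM in these libraries and 0 in the others. The mucous cell peptide gene Tff2 had 127 and 110.4 CPM there and at most 0.979 CPM elsewhere. Tff1 had reads in the same 3 libraries as most Atp4a reads, with 59.1 CPM in DP-DSCs replicate 1 and 47.7 and 40.4 CPM in TP-DSCs replicates 1 and 2, against at most 1.99 CPM in the other 3. Muc6, the gland mucin gene, stood at 70.3, 1.04 and 11.5 CPM in DP-DSCs and at 146, 77.4 and 11.9 CPM in TP-DSCs, so TP-DSCs replicate 2 exceeded DP-DSCs replicate 1. The mucous genes Gkn1, Gkn2 and Muc5ac reached at most 1.41 CPM and were highest in libraries named 4140. The 6 gastric mucous markers together ranged from 5.75 to 256 CPM among DP-DSCs and from 11.9 to 305 CPM in TP-DSCs. The 5 chief cell markers in the files ranged from 2.37 to 150.4 CPM and from 0 to 72.8 CPM. Their part in the Atp4a reads was not tested. Endocrine markers summed to at most 3.71 CPM, immune markers to at most 0.185 CPM and fibroblast markers to at most 3.19 CPM in any library, and endothelial markers to at most 1.15 CPM, with Gast, Sst, Cd3e, Col1a2 and Col3a1 at 0 in all 6. Intestinal markers summed to 248 to 259 CPM in DP-DSCs and 265 to 299 CPM in TP-DSCs, mostly from the brush border gene Vil1 (245 to 287 CPM). Every TP-DSC library exceeded every DP-DSC library in Vil1 (3.87% of tested genes). Cdx1 and Cdx2 had no reads in any library, and Cdh17 reached at most 1.89 CPM. Tuft cell markers summed to 41.6 to 154 CPM in DP-DSCs and 79.8 to 153 CPM in TP-DSCs, mostly from Avil and Dclk1. The tuft cell genes Pou2f3 and Trpm5 reached at most 1.47 and 13.6 CPM.

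Of 10 regulators of acid secretion, 5 had no reads in any library, namely Hrh2, Cckbr, Casr and the hormone genes Gast and Sst. The stimulatory G protein gene Gnas stood at 710.2, 738 and 761 CPM in DP-DSCs and at 676, 657 and 696 CPM in TP-DSCs, so every TP-DSC library lay below every DP-DSC library (8.56% of tested genes), by a log2 fold change of -0.14 ± 0.18 (SE) that was not called. The muscarinic receptor gene Chrm3 stood at 15.4, 1.44 and 1.07 CPM in DP-DSCs and at 18.2, 0 and 6.57 CPM in TP-DSCs, again highest in the libraries named 3840 in each group. The somatostatin receptor gene Sstr2 reached at most 2.81 CPM in any library, and the prostaglandin receptor gene Ptger3 had reads in DP-DSCs replicate 1 alone (0.644 CPM).

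**Figure D4:**
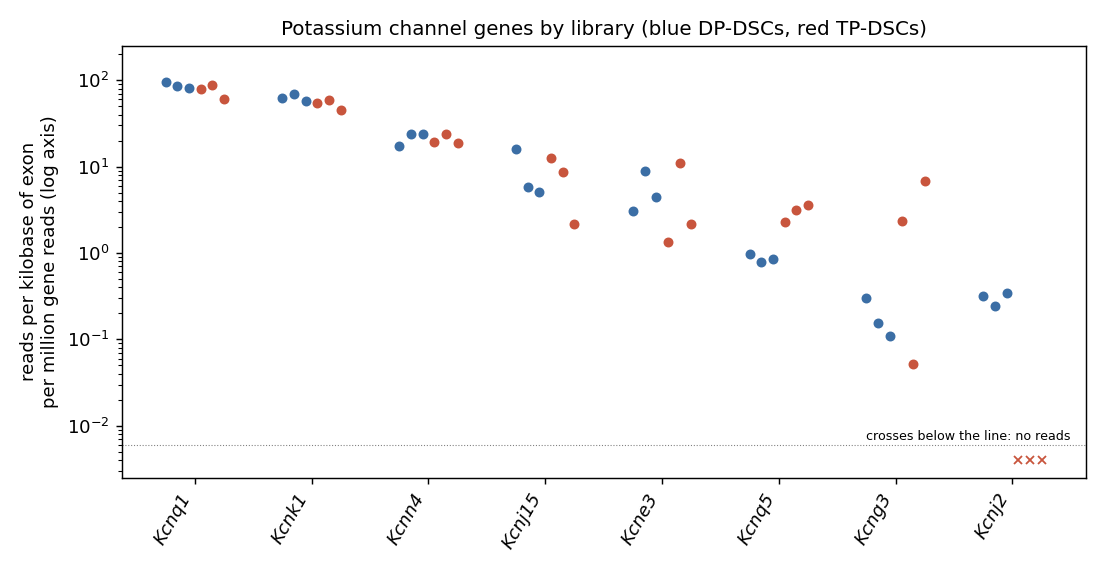
Level per length (vertical axis, RPKM on a log axis) of 8 of the 18 potassium channel genes that passed the filter on low counts, in each library, blue for DP-DSCs and red for TP-DSCs, with crosses for libraries without reads. Kcnq1 is the highest gene in each library, followed on the mean by Kcnk1 (58.3), Kcnn4 (21.2) and Kcnj15 (8.43).

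Of the 83 other potassium channel genes in the files, outside the KCNQ and KCNE families, 42 had no reads in any library, 7 had reads in all 6 and 14 could be tested. None of the 14 was called by edgeR (0.00% of all tested genes), 8 had a log2 fold change above 0 and 6 below, and the median was 0.19 against -0.02 over all tested genes. At an unadjusted p under 0.05 (6.10% of all tested genes) there were 2 higher, among them Kcng3, and 1 lower, Kcnj2. Kcng3, a silent modifier subunit, had 7.98, 0.176 and 22.9 CPM in TP-DSCs and 0.370 to 1.01 CPM in DP-DSCs, with overlap. The inward rectifier gene Kcnj2 had 1.32 to 1.89 CPM in DP-DSCs and no reads in TP-DSCs (8.56% of tested genes lay lower in every TP-DSC library). In TP-DSCs replicates 1, 2 and 3, reads were lacking for 76.5, 87.7 and 89.4% of genes with a mean of 0.5 to 1 CPM over the 6 libraries. Kcnn4, a calcium-activated channel of epithelia, stood at 88.9, 123 and 122 CPM in DP-DSCs and at 99.4, 121 and 95.9 CPM in TP-DSCs. Kcnk1 stood at 139.8, 156 and 130.1 CPM and at 123, 131 and 102 CPM, in the same order, and both genes overlapped between the groups.

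The other bicarbonate and anion exchangers held 8 tested genes of 18 in the files, with 0 called, 5 above 0 and 3 below, and a median of 0.29. Slc4a4 stood at 155, 172 and 213 CPM in DP-DSCs and at 161, 101 and 405 CPM in TP-DSCs. Slc4a11 stood at 16.6, 127 and 39.6 CPM in DP-DSCs and at 36.4, 149.9 and 64.8 CPM in TP-DSCs, highest in replicate 2 of each group like Kcne3 and Slc26a9. Slc4a7, a sodium bicarbonate cotransporter, ranged from 86.8 to 178 CPM and the sulfate transporter gene Slc26a2 from 37.7 to 139 CPM over the 6 libraries, with overlap. Slc4a3, the exchanger AE3, stood at 9.73, 9.55 and 7.29 CPM in DP-DSCs and at 12.3, 51.2 and 10.2 CPM in TP-DSCs. Its groups did not overlap (3.87% of tested genes), and the log2 fold change of 1.43 ± 0.74 (SE) was not called (edgeR adjusted p = 0.999).

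The carbonic anhydrase family, whose active enzymes supply protons and bicarbonate, held 8 tested genes of 16, with 0 called, 3 above 0 and 5 below. Not every member of the list, Car8 among them, is an active enzyme. Car9, a hypoxia-induced membrane enzyme, stood at 752, 149 and 613 CPM in DP-DSCs and at 653, 503 and 658 CPM in TP-DSCs, low in DP-DSCs replicate 2. Car2, the cytosolic form used by parietal cells, stood at 111, 31.3 and 22.5 CPM in DP-DSCs and at 66.7, 13.7 and 31.5 CPM in TP-DSCs. Car12 ranged from 1.18 to 23.7 CPM, Car13 from 0 to 18.4 CPM and Car8 from 0 to 3.85 CPM, all with overlap. Car15 had 0.614 to 1.47 CPM in DP-DSCs and no reads in TP-DSCs (8.56% of tested genes lay lower in every TP-DSC library). It was the 1 member of the list with an unadjusted p under 0.05 (6.10% of tested genes). Its mean was 0.458 CPM. Of genes with a mean of 0.5 to 1 CPM, 76.5, 87.7 and 89.4% lacked reads in TP-DSCs replicates 1, 2 and 3.

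The sodium pump, which sets the potassium gradient these channels use, has its main epithelial beta subunit encoded by Atp1b1. Atp1b1 stood at 1681, 705 and 739 CPM in DP-DSCs and at 1290.4, 752 and 692 CPM in TP-DSCs, highest in the libraries named 3840. Of 6 tested pump genes 0 were called, with 1 above 0 and 5 below and a median of -0.36. Atp1b3, another beta subunit, ranged from 88.5 to 158 CPM with overlap. Fxyd6 had 10.99 to 38.3 CPM in DP-DSCs and at most 9.08 CPM in TP-DSCs, with no overlap (8.56% of tested genes), and was not called (edgeR adjusted p = 0.999). Fxyd3, a pump modulator, stood at 206, 175 and 209 CPM in DP-DSCs and at 166, 125 and 165 CPM in TP-DSCs, with no overlap (8.56% of tested genes) and a log2 fold change of -0.38 ± 0.21 (SE) that was not called.

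Sodium-proton exchangers and chloride transporters had few genes without reads, 1 of 11 and 1 of 17. Of 8 tested sodium-proton exchanger genes 0 were called, 6 lay above 0 and 2 below, with a median of 0.30. Slc9a8, an exchanger of the Golgi, ranged from 36.9 to 107 CPM and the scaffold gene Slc9a3r1 from 90.9 to 159 CPM, both with overlap. Of 12 tested chloride channel and cotransporter genes 0 were called, 5 lay above 0 and 7 below, with a median of -0.07. The sodium-potassium-chloride cotransporter gene Slc12a2, which loads chloride for secretion, stood at 538, 627 and 364 CPM in DP-DSCs and at 522, 525 and 549 CPM in TP-DSCs. The calcium-activated chloride channel gene Ano1 stood at 113, 186 and 158 CPM in DP-DSCs and at 111, 142 and 138 CPM in TP-DSCs. The chloride transporter genes Clcn3 (86.4 to 132 CPM), Slc12a7 (97.6 to 204 CPM) and Clcn6 (6.07 to 23.9 CPM) also overlapped. Over all 9 pathway lists, 64 genes other than the members were tested, of which 0 were called by edgeR and 0 by DESeq2. Of these genes, 30 lay above 0 and 34 below, and 4 had an unadjusted p under 0.05, against 6.10% of all tested genes.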

How the data were processed

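RNA from sorted organoid cells was sequenced in 6 libraries. The deposited files hold 1 raw read count per gene symbol and library. Per the submitters' processing notes, STAR 2.7.3a, Partek and DESeq2 3.5 were used with mm10. The kit marks strand, per the labels. The roles of these tools, the annotation and the strand setting of the counting are not stated in the sources used here. Reads in no gene (14.1 to 20.3% of reads) and ambiguous reads (1.09 to 1.86%) were left out of totals and tests.

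CPM is the count divided by the library's gene reads, times 1000000. RPKM divides CPM by the kilobases of merged GENCODE M21 exons (GRCm38, the assembly of mm10). Of 23420 symbols, 21737 matched 1 annotated gene. The members and lists were chosen with earlier results of these data known. The comparison of all genes used edgeR 4.0.16 in R 4.3.3: filterByExpr (minimum count 10, minimum total 15), trimmed mean of M values (TMM) scaling, and a quasi-likelihood F test on group alone, adjusted by Benjamini-Hochberg at 0.05. It was tested on simulated data. Standard errors came from the fold change on the log2 scale over the root of its F. DESeq2 1.42.0, limma-voom (limma 3.58.1), other scalings and filters, and subsets of libraries were alternatives.

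Genes were named by rule: the members; per pathway list up to 4 genes by mean CPM and up to 2 by smallest p; per cell type list up to 2 by mean CPM; and, for each member with reads in all 6 libraries, the 3 genes with the highest Pearson correlation of log2 CPM (prior count 2). Kcng3, Gif, Tff1, Kcnq1ot1, Fastk, Cdh17, Pou2f3, Trpm5 and the mucous genes at low level were named after their values were seen. So were the genes named as having no reads, as having reads in all libraries or as zero-count markers. Chosen or dropped after values were seen were the coding sequences compared, a comparison with genes of similar level, and the decision to give no fold for Atp4a, which had no reads in 2 libraries. Of the comparison with genes of similar level, only the shares of genes without reads are used. The fit gave test values for the members too, and these are left out because the members were chosen on that contrast. Some genes that this rule names, and some sequences that were compared, are not reported here. Within-group chi-square values of 112.2 to 306.1 per degree of freedom gave no sign of a library deposited in duplicate.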

Additional observations from a re-analysis of the deposited data

How the results depend on the processing

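edgeR called 0 genes under every other scaling, filter, block and subset tried and without any 1 library (from 0 to 0), limma-voom also called 0, and DESeq2 called 93, of which 7 were higher and 86 lower in TP-DSCs. Pathway genes held 0 calls in each of these fits, which tested 62 to 112 of them (64 in the fit reported). The log2 fold change of Kcnq5 lay between 1.74 and 1.98 under the other settings and between 1.64 and 1.86 with 1 library left out. That of Kcne3 ranged from -1.60 (TP-DSCs replicate 2 left out) to 0.27 (DP-DSCs replicate 2 left out), and was 0.20 and 0.16 when TP-DSCs replicate 1 or 3 was left out. The cause was not tested. With the length of the longest protein-coding transcript, the mean RPKM was 110.4 for Kcnq1 and 46.2 for Slc4a2, in place of 81.7 and 23.7, because that length is shorter than the merged exons, and the order of the members stayed the same. Atp4a has no fold because 2 libraries held no reads of it: its fitted log2 fold change, 2.82 ± 2.65 (SE) on all libraries, moved between 2.23 and 7.91 over the settings. No paired analysis was made. The number 3840 names replicate 1 of each group, but its meaning is not given, and the labels do not pair the libraries named 4140. The groups do share the numbers 3840 and 4140, and a fit with that number as a block called 0 genes (843 at an unadjusted p under 0.05, against 728) and gave a log2 fold change of 1.75 ± 0.60 (SE) for Kcnq5.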
